A study of Mus musculus with 2 samples.

Results

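The genes Dnmt1, Uhrf1, Dnmt3a, Dnmt3b, Dnmt3l, Tet1, Tet2 and Tet3, which write, maintain or remove DNA methylation, were examined for allele-specific open chromatin. They were chosen by name and function. The rows used are the 50 kb windows of an allele-specific ATAC-seq table that overlap the mm10 body of a gene or lie within 50 kb of it, which gave 33 of the 43941 windows. All 8 genes had windows (3 to 5 each), no window served 2 of the genes, and 17 of the 33 windows overlapped a gene body. ATAC-seq uses a transposase that cuts and tags open DNA. The table holds 2 replicates of 1 group, the female hybrid embryonic stem cell line F121-6, with 1 chromosome set from 129 mice and 1 from castaneus (CAS) mice. The cells were grown with serum and LIF on fibroblast feeders inactivated with mitomycin C, and each library came from 200000 cells read as 100 bp pairs. F121-6 is 1 line, the strain of the feeders and the parent that gave each allele were not used here, and nothing says that the replicates were separate cultures, so any spread between them may be technical.

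DNA methylation in mammals sits mostly on cytosines of CpG dinucleotides. DNMT3A and DNMT3B place new methyl groups, and DNMT3L, which has no catalytic activity of its own, stimulates both. UHRF1 recognises hemimethylated DNA after replication and brings in DNMT1, which copies the pattern to the new strand. TET1, TET2 and TET3 oxidise methylcytosine, which leads to its removal. Mouse embryonic stem cells express the de novo enzymes together with TET1 and TET2, and methylation of their genome responds strongly to culture conditions.

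Values are whole-number counts per window and allele, from 0 to 18 over the table. What 1 count stands for is not given in the sources used here, so the read depth is unknown, and exact Clopper-Pearson 95% intervals below cover counting error only. The intervals and the tests take the counts as independent, which may not hold. In 11 of the set's 29 windows with a count, each allele repeated its count between replicates, against 17.3% of all windows with a count. In replicate 1 the columns summed to 44026 (129) and 46128 (CAS), and in replicate 2 to 59812 and 59995. Where counts are given as pairs joined by "then", each pair is 129 before CAS, for replicate 1 and then replicate 2. As a check of the label, 9 of 10 stem cell markers had a gene body window (Fgf4 had none) and all 9 had counts, with a median of 11.1 counts per window (both alleles, mean of replicates) against 3.0 over all coding genes. The 10 fibroblast markers had a median of 2.75 (range 0.5 to 9.0), none at 0, and summed to 46 and 50 counts in replicates 1 and 2. The levels did not separate the cell types gene by gene: Tdgf1 (3.5) and Sox2 (3.75) were low among the stem cell markers, while Pax6, a neural gene, had 17.0 and Sox17, an endoderm gene, 13. The 6 trophoblast and primitive endoderm markers had a median of 3.25 (range 1.25 to 13), and the 4 early differentiation markers with a window had a median of 5.0 (range 0.5 to 17.0). The part of the feeder cells in the counts below was not tested. For bulk data of this kind, fewer cells with an open site and a weaker opening per cell cannot be told apart.

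Counts per window differed widely among the 8 loci, and broadly the same loci were rich and poor in both replicates. The table holds only counts assigned to an allele, and how much of each window could be assigned is not given. Levels of different loci may therefore differ for that reason as well as in open chromatin, which was not tested. Tet2 carried the most in the mean of the replicates, at 8.25 and 9.5 counts per 50 kb window in replicates 1 and 2. These values sum both alleles over gene body and flanks (8.88 ± 0.884, SD, n = 2). Uhrf1 followed with 8.33 and 6.33, slightly above Tet2 in replicate 1, and Dnmt1 with 5.0 and 7.0. Dnmt3b had 4.25 and 5.0, and Tet1 had 4.25 in each replicate. Dnmt3l had 2.5 and 3.0, Tet3 2.4 and 2.2, and Dnmt3a the fewest, 1.2 and 0.8 (1.0 ± 0.283, SD, n = 2).

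The replicate values of Tet2 and Uhrf1 overlapped, as did those of Uhrf1 and Dnmt1, and Dnmt3b touched both Dnmt1 and Tet1. Both values of Dnmt3l lay below both of Tet1 and above both of Tet3, and both of Dnmt3a lay below every other value. With 2 replicates an exact permutation test of 2 against 2 cannot give a two-sided p below 0.333, so this order is a description. Over the 8 loci the median was 4.25 and 4.63 counts per window, against 2.75 in each replicate over 19405 coding loci with a window. Of those loci, 2.24% had as many counts per window as Tet2 or more, 5.36% as many as Uhrf1 and 88.1% as many as Dnmt3a.

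**Figure D1:**
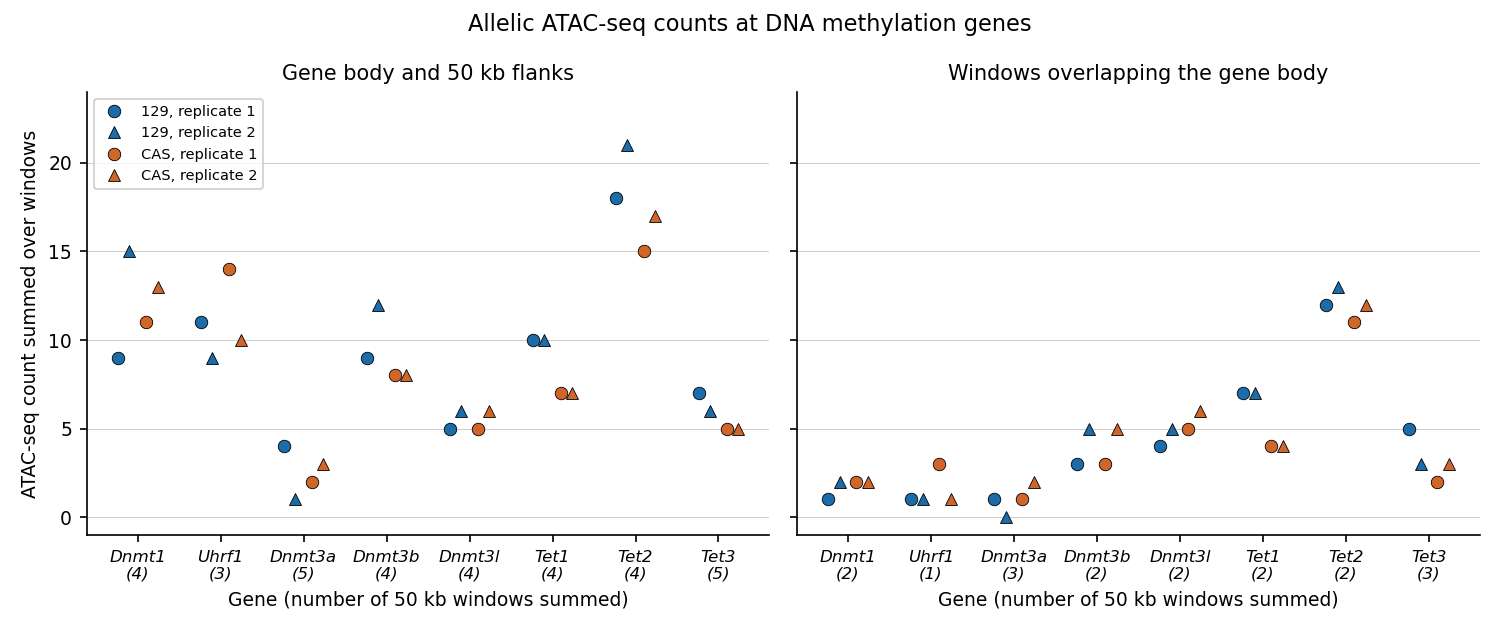
ATAC-seq counts per gene, summed over the windows of the gene body and 50 kb flanks (left) or over the windows that overlap the gene body (right), 1 point per allele and replicate, with the number of windows in brackets. Tet2 lies highest in both panels, from 15 to 21 counts on the left, and Uhrf1 and Dnmt1 drop to between 1 and 3 counts when the flanks are left out.

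Counts were concentrated in few windows: 8 of the 33 had a sum of 8 or more in a replicate, against 7.87% of all windows and 15.5% of those with a coding start.

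The maintenance pair owed most of its counts to neighbouring windows. Of the 45 and 47 counts around Dnmt1 and Uhrf1, 7 and 6 lay in the 3 windows that overlap the genes (15.6% and 12.8%), and the 4 flanking windows averaged 9.5 and 10.3 counts. For the 3 Tet genes 41 of 62 and 42 of 66 counts lay in gene windows (66.1% and 63.6%), and for the 3 de novo genes 17 of 33 and 23 of 36. Over 18808 coding loci with a count the median share in gene windows was 47.6% of the counts and 33.3% of the windows. Gene windows were 3 of 7 for the maintenance pair, 7 of 13 for the Tet genes and 7 of 13 for the de novo genes. The shares of counts were therefore not compared at equal shares of windows.

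At Dnmt1 (chromosome 9, 20907206 to 20959888, minus strand) the window inside the gene, 20900001 to 20950000, had 0 counts in all 4 columns. A count of 0 allows up to 3 counts in each. The window with its starts, 20950001 to 21000000, which also overlaps S1pr2, a receptor gene for sphingosine 1-phosphate, had 1 and 2 counts, then 2 and 2. Counts were higher away from the gene: 21000001 to 21050000, over Mrpl4, a mitochondrial ribosomal protein gene, and the adhesion genes Icam1, Icam4 and Icam5, had 5 and 6, then 8 and 6. On the other side 20850001 to 20900000, over Shfl, Angptl6, Ppan and the translation initiation factor gene Eif3g, had 3 and 3, then 5 and 5. The locus as a whole had 9 and 11 counts, then 15 and 13.

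Uhrf1 (chromosome 17, 56303337 to 56323486, plus strand) lay beside a much richer window. Its own window, 56300001 to 56350000, shared with Arrdc5 and the histone demethylase gene Kdm4b, had 1 and 3 counts, then 1 and 1. The window before it, 56250001 to 56300000, over Fem1a, Ticam1 (an adaptor of Toll-like receptors), Plin3 (a lipid droplet protein) and Arrdc5, had 10 and 11, then 8 and 9. In replicate 1, 9 windows of the whole table had as many counts as that one or more, and in replicate 2, 126 did. It ends 3336 bp before the outer start of Uhrf1, so a 50 kb grid cannot show which of these genes the counts belong to. The window after the gene, over Kdm4b, had 0 in all 4 columns.

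Among the de novo genes, Dnmt3a (chromosome 12, 3801559 to 3914443, plus strand), the longest of the 8 at 112885 bp, was nearly empty. Over its 5 windows it had 4 and 2 counts, then 1 and 3. The window with its outer starts, 3800001 to 3850000, had 1 count on 129 in replicate 1 and 0 elsewhere. The window with its inner start, 3850001 to 3900000, had 0 and 1 in each replicate.

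Dnmt3b (chromosome 2, 153649411 to 153687730, plus strand) had 9 and 8 counts, then 12 and 8. The window with its start, 153600001 to 153650000, had 3 and 3, then 4 and 5, and also overlaps Commd7; the start of Dnmt3b lies 551 bp before its end. The next window, 153650001 to 153700000, which holds nearly all of the gene, had 0 and 0, then 1 and 0. The flanking window over Mapre1, a gene of a microtubule end-binding protein, had 3 and 2, then 3 and 0.

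Dnmt3l (chromosome 10, 78042287 to 78063622, plus strand) had 5 counts on each allele in replicate 1 and 6 on each in replicate 2. Its outer start shares the window 78000001 to 78050000 with Pfkl, a phosphofructokinase gene, and Aire, a regulator of thymic self-antigens, which had 3 and 4 counts, then 4 and 5. The window with its inner start, shared with Icosl, had 1 in each column.

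The window with the start held most of the counts of the Tet2 locus (20 of 33, then 22 of 38) and of the Tet1 locus (10 of 17 in each replicate). At Tet3 the window with the listed start held 5 of 12, then 4 of 11. The window 133500001 to 133550000, which overlaps no coding gene but Tet2 (chromosome 3, 133463677 to 133545136, minus strand) and holds its start, had 10 and 10 counts, then 11 and 11. Only 14 windows of the table had that sum or more in replicate 1, and 21 in replicate 2. The window upstream, 133550001 to 133600000, with no coding gene, had 5 and 3, then 7 and 4. The window with the 3′ part of Tet2 had 2 and 1 in each replicate.

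At Tet1 (chromosome 10, 62804570 to 62887469, minus strand) the window with the start, 62850001 to 62900000, also overlaps no other coding gene and had 6 and 4 counts in both replicates. The rest of the gene, 62800001 to 62850000, had 1 on 129 and 0 on CAS in both. Tet3 (chromosome 6, 83362373 to 83457208, minus strand) was poorer. The window with its listed start, 83400001 to 83450000, had 4 and 1, then 2 and 2, and the one with the 3′ part of the gene and Bola3 had 0 in all columns. The outer 5′ end of the gene lies in the next window, which also overlaps Dguok and had 1 in each column.

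**Figure D2:**
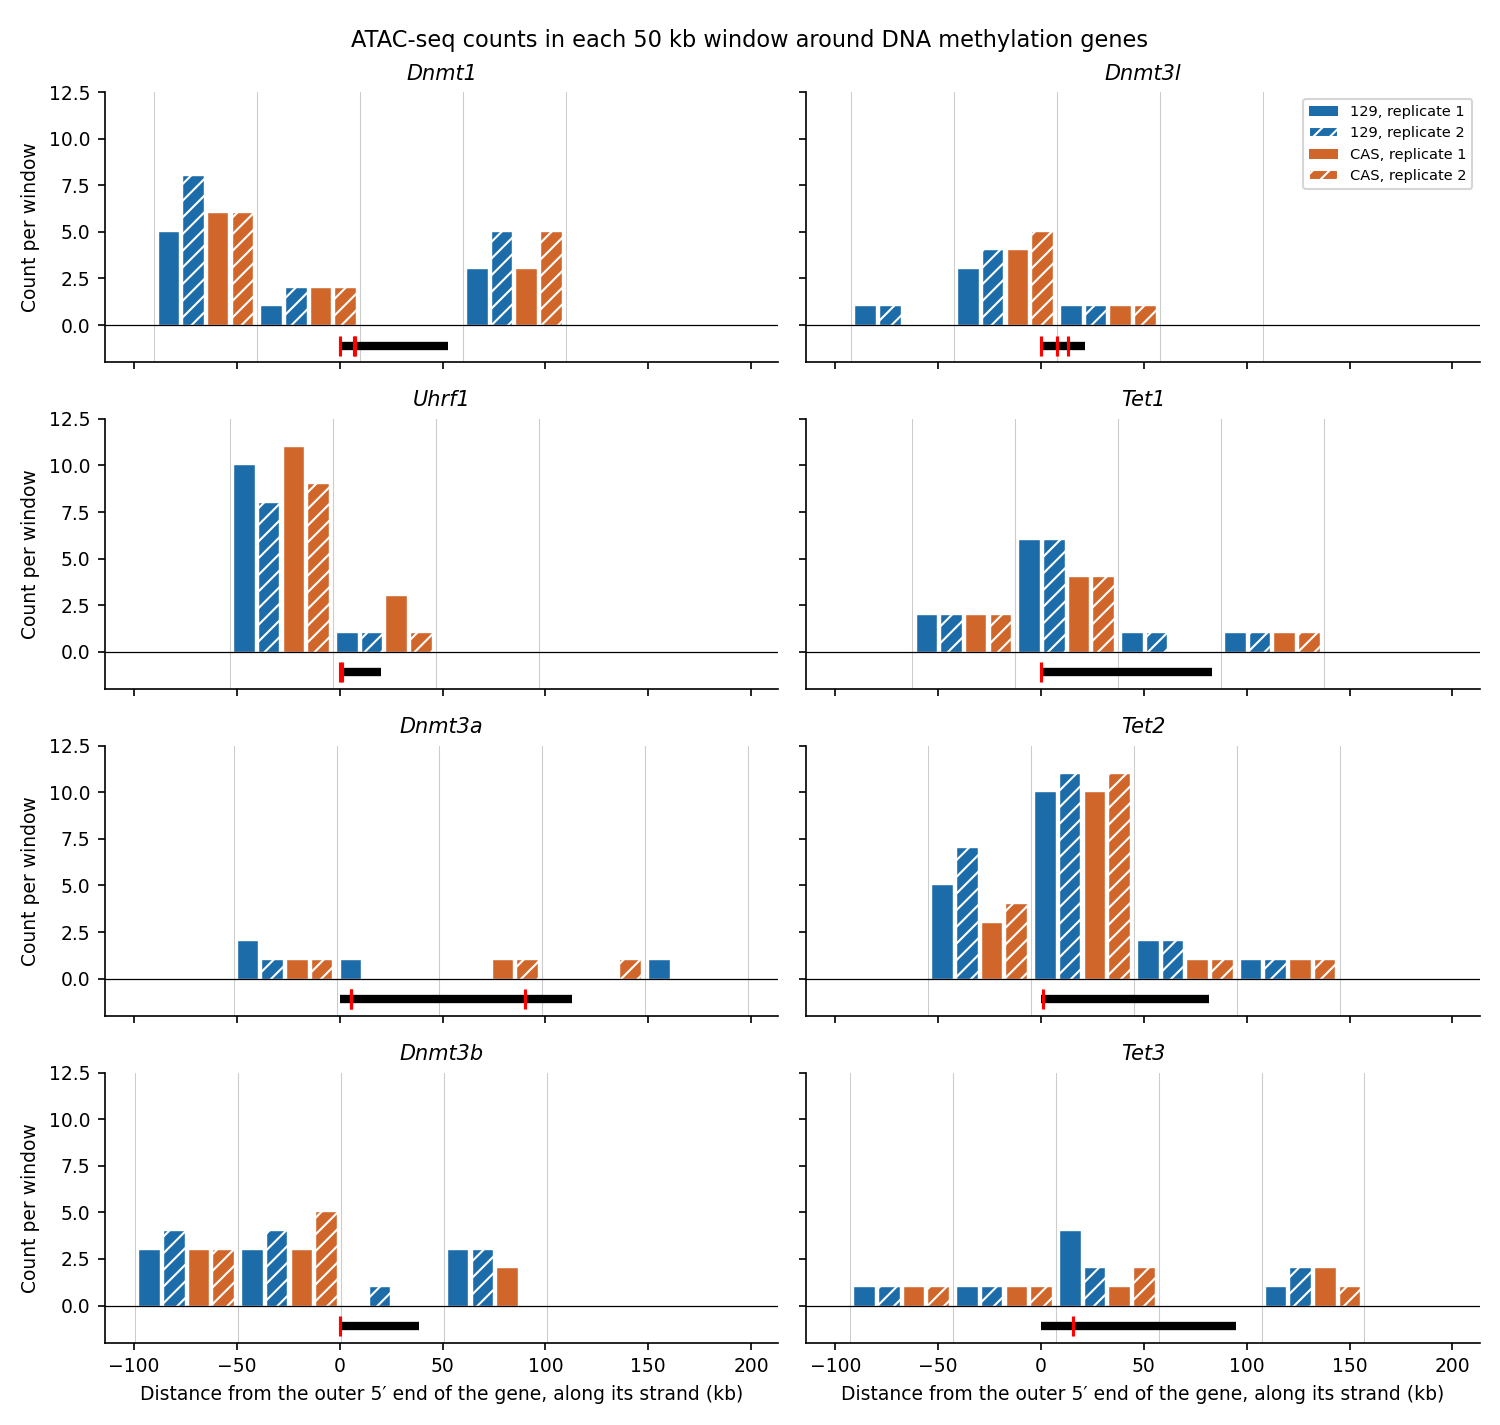
Counts in each 50 kb window (grey lines mark window borders) against the distance from the outer 5′ end of each gene in kb, for both alleles and replicates; the black bar is the gene body and red ticks are starts listed by RefSeq. The tallest bars at Tet2 stand over its start (10 to 11 counts), while at Uhrf1 they stand in the window before the gene (8 to 11 counts).

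The 8 genes have 15 starts in the RefSeq promoter table (GRCm38.p6, whose primary sequence is mm10), in 10 windows. Those 10 windows all had counts, with medians of 4.5 and 4.0 (both alleles) in replicates 1 and 2, against 3.0 in each over the 10742 windows with a coding start. The 7 gene windows without a listed start, which include the one with the outer 5′ end of Tet3, summed to 6 and 8 counts. As many counts as at the Tet2 start were found in 7 and 11 of the 10742 start windows, and as many as at the Tet1 start (10 and 10 counts) in 5.09% and 6.63% of them. The windows with the outer starts of Dnmt3l (7 and 9) and of Dnmt3b (6 and 9) came next, and those of Dnmt3a were the lowest (1 and 0 counts for the outer starts, 1 and 1 for the inner start, in replicates 1 and 2).

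**Figure D3:**
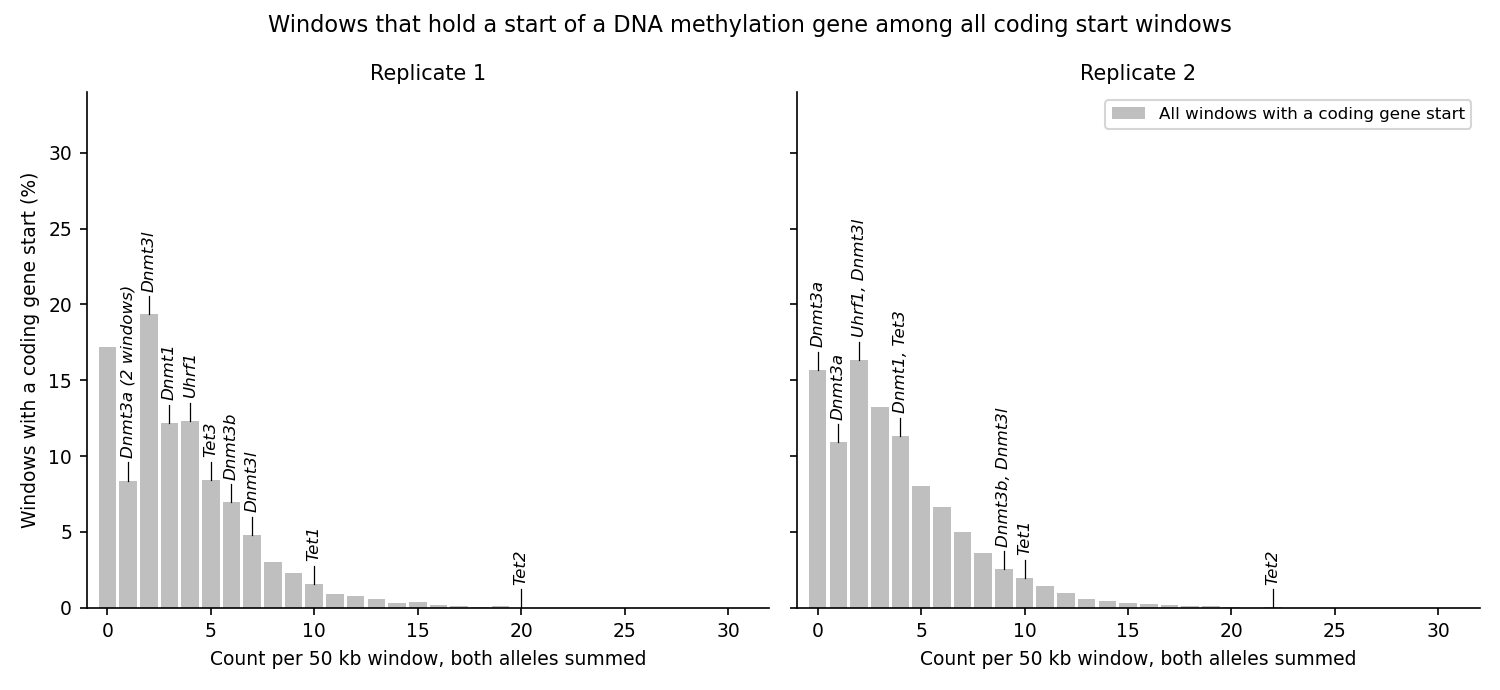
Share of all windows with a coding gene start (grey bars, percent) by their count summed over both alleles, for each replicate, with the windows that hold a start of the 8 genes marked by name. Tet2, at 20 and 22 counts, stands in the far right tail, and the Dnmt3a windows stand at 0 and 1.

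Richness in CpG of a promoter and the counts of its 50 kb window did not go together at every gene. Each sequence is the 250 bases before a listed start, from the RefSeq reference (neither the 129 nor the CAS allele), 5′ to 3′ along the gene, with every CpG in capitals. Tet2 and Dnmt3a are shown as the loci with the most and the fewest counts, Tet1 as a start window with no other coding gene, and Dnmt3l as a start poor in CpG.
Tet2, chr3:133544391-133544640, minus strand: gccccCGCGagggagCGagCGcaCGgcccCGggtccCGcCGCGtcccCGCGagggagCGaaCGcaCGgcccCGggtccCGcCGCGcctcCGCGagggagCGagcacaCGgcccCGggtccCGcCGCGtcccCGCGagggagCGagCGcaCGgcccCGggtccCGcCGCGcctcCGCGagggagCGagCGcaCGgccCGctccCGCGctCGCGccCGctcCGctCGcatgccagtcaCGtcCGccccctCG
Dnmt3a, chr12:3806910-3807159, plus strand: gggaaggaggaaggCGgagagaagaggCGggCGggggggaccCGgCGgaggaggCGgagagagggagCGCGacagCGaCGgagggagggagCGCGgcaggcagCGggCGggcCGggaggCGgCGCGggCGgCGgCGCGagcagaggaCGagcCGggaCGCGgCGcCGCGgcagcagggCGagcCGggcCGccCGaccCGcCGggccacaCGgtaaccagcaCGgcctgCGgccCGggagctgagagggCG
Tet1, chr10:62887325-62887574, minus strand: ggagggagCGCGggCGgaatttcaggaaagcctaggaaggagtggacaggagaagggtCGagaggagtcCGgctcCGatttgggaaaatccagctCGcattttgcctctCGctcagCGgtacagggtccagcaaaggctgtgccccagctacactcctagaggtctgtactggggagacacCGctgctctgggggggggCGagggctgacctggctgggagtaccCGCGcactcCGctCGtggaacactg
Dnmt3l, chr10:78042037-78042286, plus strand: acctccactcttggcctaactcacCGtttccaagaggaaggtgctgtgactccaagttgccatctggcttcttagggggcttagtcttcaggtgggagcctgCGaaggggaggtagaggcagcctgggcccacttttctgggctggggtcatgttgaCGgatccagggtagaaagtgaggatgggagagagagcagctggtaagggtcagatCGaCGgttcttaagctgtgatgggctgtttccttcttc

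The 250 bases hold 51 CpGs at Tet2, 40 at Dnmt3a, 15 at Tet1 and 5 at Dnmt3l. Over the full 300 bases of the table (250 before and 50 after the start) Tet2 has 57, a number reached by 0.184% of the 20084 coding promoters. Dnmt3a has 46 and 47 at its outer starts, reached by 2.19% and 1.91%, and its window there had 1 count and 0. So few counts assigned to an allele do not show that the promoter is closed. Dnmt3l has 6 at its outer start, under the median of 14, in a window with 7 and 9 counts that also overlaps Pfkl and Aire. The richest promoters of Dnmt1 and Uhrf1 have 33 each, Dnmt3b has 30, Tet3 22 and Tet1 17. The motif searched was CG, which reads the same on both strands, and 95.6% of coding promoters hold at least 1. The Tet2 sequence repeats itself: moved by 42 bases it matched its own letters at 162 of 208 positions, against 75 of 153 at the best shift of Dnmt3a. A window is much longer than a promoter, so the counts cannot be placed on these bases.

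The alleles were compared to ask whether the 2 parental genomes differ in open chromatin at these genes. No locus and no window of the 8 genes passed. edgeR's quasi-likelihood test over all 18808 coding loci with a count called 0 loci (0.0%) and 0 of the 8, with 349 loci (1.86%) at an unadjusted p under 0.05 and none of the 8 among them. DESeq2's Wald test and limma on centred square roots also called 0 loci. With the replicate as a block, which pairs the alleles of 1 library, edgeR called 1 locus (0.00532%), Dlg2 on chromosome 7, and none of the 8. Of the 33 windows, 29 had a count and were tested among 34417. edgeR called 0 windows (0.0%), with 910 (2.64%) at an unadjusted p under 0.05, again none of the 29. Limma on centred square roots called 78 windows (0.227%), none of the 29. At counts this small, a difference that misses the threshold is not shown to be absent.

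The Tet genes leaned to 129 in both replicates. Tet2 had 18 and 21 counts on 129 against 15 and 17 on CAS in replicates 1 and 2, a log2 difference of 0.30 (counting SE 0.34, adjusted p = 0.994 in edgeR). Tet1 had 10 and 10 against 7 and 7 (0.52, counting SE 0.50, adjusted p = 0.994 in edgeR). Tet3 had 7 and 6 against 5 and 5 (0.38, counting SE 0.61); from replicate 2 alone its difference was 0.23 and from replicate 1 alone 0.52. Each of the 3 loci had both 129 values above both CAS values. Summed over the 3, the 129 share was 56.5% in replicate 1 (95% interval 43.3 to 69.0%) and 56.1% in replicate 2 (43.3 to 68.3%). Their chromosomes had 59.8% and 55.6% (Tet1), 48.3% and 50.2% (Tet2) and 49.6% and 51.6% (Tet3), all within these intervals.

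Among the writers, Dnmt3b also had both 129 values (9 and 12) above both CAS values (8 and 8), with a log2 difference of 0.40 (counting SE 0.48). From replicate 1 alone it was 0.21 and from replicate 2 alone 0.55. The excess lay in its flanks: over the 2 windows that overlap the gene the alleles were equal, at 3 and 3, then 5 and 5, and the Mapre1 window had 3 and 2, then 3 and 0. Uhrf1 alone was higher on CAS in both replicates, with 14 and 10 on CAS against 11 and 9 on 129 (-0.25, counting SE 0.44), and its values overlapped. Dnmt1 (45.0% and 53.6% on 129) and Dnmt3a (4 of 6 counts, then 1 of 4) changed side between replicates, and Dnmt3l was at 50.0% in both. These counting SEs are those of the log2 ratio of 2 independent Poisson counts, summed over the replicates, and do not measure the spread between the replicates.

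Counted by direction, 4 of the 8 loci had more on 129 in each replicate and 1 had more on CAS. Over all coding loci with a count these shares were 19.3% and 20.5%, and among the 15287 loci with 10 or more counts over the 4 columns, as all 8 have, 21.0% and 22.1%. The 4 were also those without overlap, a state that 11.0% of all loci showed with 129 above and 11.6% with CAS above. The median log2 difference was 0.16 over the 8 loci and 0.01 over all coding loci. Over single windows, 6 of 29 had more on 129 in each replicate and 3 more on CAS, against 11.4% and 12.6% of all windows with a count, and 2 were opposite.

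The 129 share pooled over the 8 loci lay near that of their chromosomes. Over all 33 windows 129 had 73 of 140 counts in replicate 1 (52.1%, interval 43.5 to 60.7%) and 80 of 149 in replicate 2 (53.7%, 45.3 to 61.9%), a mean of 52.9% ± 1.09 (SD, n = 2). Tet1 and Dnmt3l lie on chromosome 10, which as a whole had 59.8% and 55.6%, and Tet1 itself had 58.8% in each replicate. Dnmt3b lies on chromosome 2, at 53.7% and 52.3%, and had 52.9% and 60.0%. Chromosome 3, with Tet2, was at 48.3% and 50.2%, below the 54.5% and 55.3% of the locus, but both intervals of the locus hold the level of the chromosome. With each locus centred on its own chromosome and weighted by its counts, the pooled share was 50.7% (mean of the replicates). On that scale 50% stands for the level of the chromosomes, and single loci lay on both sides of it. In the gene windows alone the mean 129 share, not centred, was 51.5%, where Tet2 had 12 and 13 counts on 129 against 11 and 12.

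**Figure D4:**
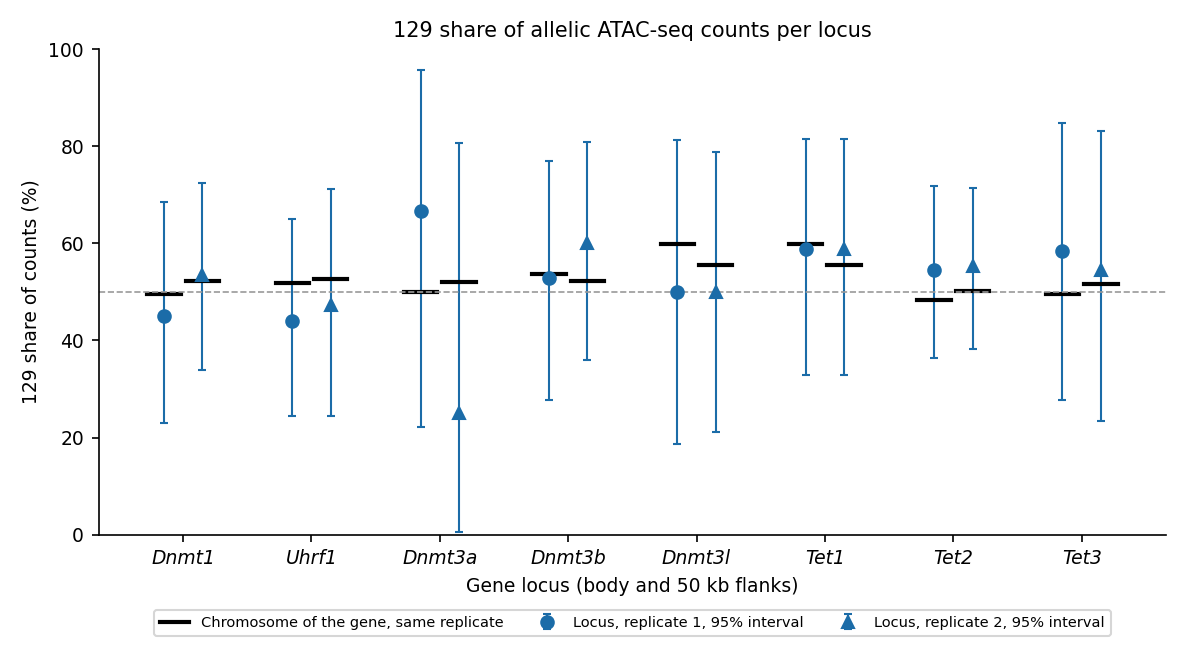
129 share of counts (percent) at each locus in replicates 1 and 2, with exact 95% intervals for counting error, and the share of the gene's whole chromosome in the same replicate (black bars). Every interval holds 50% and the share of the chromosome.

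2 windows of the 33 were higher on 129 by 2 or more counts in both replicates, and none on CAS. Of all windows with a count, 1.6% were higher on 129 in this way and 1.92% on CAS. The Tet1 start window, with 6 and 4 in each replicate, had a log2 difference of 0.57 (counting SE 0.66, adjusted p = 0.999 in edgeR). The window upstream of Tet2, with 5 and 3, then 7 and 4, had 0.76 (counting SE 0.69, adjusted p = 0.999 in edgeR). The Tet2 start window itself, the richest over a gene of the set, was equal on the alleles in each replicate. The largest log2 differences, such as -3.17 at the inner start of Dnmt3a and 3.17 in the 3′ part of Tet1, rested on 1 count per replicate on a single allele.

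Counts at the 8 loci were close between the replicates. Replicate 2 had 1.33 times the counts of replicate 1 over the table, but 149 against 140 (1.06 times) over these windows. The median coding locus had a ratio of 1.0 (quartiles 0.786 and 1.33), and 5 of the 8 loci lay between those quartiles. Dnmt1 had the highest ratio, 1.40, and Dnmt3a the lowest, 0.667, followed by Uhrf1 at 0.760. In 11 (37.9%) of the 29 windows with a count, each allele had the same count in replicate 2 as in replicate 1. That held for 18.8% of windows with a count within 50 kb of a coding gene and 19.97% of those with a coding start. All 4 windows of Tet1 repeated in this way, as did 2 of 3 windows with a count at Dnmt3l, 2 of 4 at Tet2 and 2 of 4 at Tet3. At Dnmt3a 1 of 5 repeated, and 0 of 3 at Dnmt1, 0 of 4 at Dnmt3b and 0 of 2 at Uhrf1.

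Other genes of the pathway were read from the same fits. The list held 42 genes on chromosomes 1 to 19, which the table covers. All 42 had counts, and edgeR called 0 of 42 with and without the replicate block. By direction 10 had more on 129 in each replicate and 12 more on CAS, against 19.3% and 20.5% of all loci. Their median log2 difference was 0.01, and their median level was 4.83 and 4.0 counts per window, close to the 4.25 and 4.63 of the 8 loci. The 8 loci and these 42 were not tested against each other.

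The largest summed difference in counts of the list was at Apex1. This gene, the main endonuclease gene of base excision repair, had 9 and 8 counts on 129 against 16 and 16 on CAS, a log2 difference of -0.89 (counting SE 0.43, unadjusted p = 0.0336, adjusted p = 0.994 in edgeR), the single gene of the 42 at an unadjusted p under 0.05. Idh2, which makes the alpha-ketoglutarate that TET enzymes need, had 10 and 13 against 18 and 16. Cxxc5, a gene of a CpG-binding protein, had 13 and 8 against 17 and 11. In replicates 1 and 2 the 129 share was 36.0% and 33.3% at Apex1 (whole chromosome 45.2% and 45.9%). At Idh2 it was 35.7% and 44.8% (chromosome 45.9% and 46.7%), and at Cxxc5 43.3% and 42.1% (chromosome 44.6% and 44.8%). The 129 side held Hells, a chromatin remodeller needed for DNA methylation (5 and 7 against 3 and 3). It also held the cytidine deaminase gene Apobec1 (22 and 27 against 17 and 26). Also there was Tdg, the glycosylase that removes oxidised methylcytosine (4 and 5 against 1 and 3). The 129 share was 62.5% and 70.0% at Hells (chromosome 51.1% and 56.0%). At Apobec1 it was 56.4% and 50.9% (chromosome 49.6% and 51.6%), and at Tdg 80.0% and 62.5% (chromosome 59.8% and 55.6%). For each gene named in this paragraph, the counting intervals held the share of its chromosome. Differences of these genes from their chromosomes were not tested.

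Within this list, Mat2b, a subunit of the enzyme that makes the methyl donor, was closest to Tet2 in counts per window over the 4 columns, with a summed absolute difference of 1.58, and Zfp57, an imprint-protecting zinc finger gene, came next at 2.75. Closest to Dnmt3a were Ehmt2, a histone methyltransferase gene (0.867), and the histone demethylase gene Kdm1b (1.30). These distances describe 4 columns of small counts.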

How the data were processed

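Allele-specific ATAC-seq of 2 replicates of F121-6 was used. Per the file headers, the deposited table has 1 count column per allele and replicate for 50 kb windows, with 0 further columns of samples. Of the authors' steps, Bowtie2, MACS2, SAMtools and bedtools and the build mm10 are named, with no version or role, per the submitters' processing notes; the allele assignment is not given in the sources used here.

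Gene positions and promoter sequences are from RefSeq on GRCm38.p6 (8 of 8 genes matched). Sharing 1 base was enough for an overlap. Coordinates count from 1, and exons were not told from introns. Counts were summed per coding gene. edgeR 4.0.16 (quasi-likelihood, TMM scaling, no block, features with at least 1 count, Benjamini-Hochberg adjustment, threshold 0.05) was fitted over all windows and all loci. It was also tested on simulated data, with allele changes made only in features above the median level. There it called most of the changed loci, but over windows only the larger of the changes made, and with the replicate block none over windows. Every change made was larger than any difference fitted at the 8 loci. Recovery of differences as small as theirs was therefore not tested. The simulated counts were drawn with a variance below their mean and independently over the 4 columns. Recovery at a larger spread, or with the alleles of a replicate correlated, was not tested either. Alternatives were a replicate block, DESeq2 1.42.0 (size factors, Wald test), 1 library size per replicate, limma 3.58.1 on centred square roots (0.375 added to each count), a minimum count of 10 and a threshold of 0.1. Both alleles of a replicate were read in the same library, which pairs them; across windows their deviations from the means of the alleles had r = 0.291.

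All 8 genes are named, with each window that had a sum of 8 or more in a replicate or an allele higher by 2 or more in both; other pathway genes are the 3 largest summed differences per side and the 2 nearest in level. Windows beyond this rule were named after their values were seen. Members, lists and tests were chosen with earlier results of these data known.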

Additional observations from a re-analysis of the deposited data

How the results depend on the processing

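No locus or window of the 8 genes passed under any alternative run. Over all windows the count of calls was 0 in edgeR with TMM and rose to 1 with 1 library size per replicate and to 78 in limma on centred square roots. Over all loci it was 0 and rose to 1 with the replicate block (Dlg2, -0.96, adjusted p = 0.0198 in edgeR); the block changed no other call. The causes were not tested. The 129 share over the 8 loci, 52.9%, was 51.5% in gene windows and 50.7% with each locus centred on its chromosome, and 52.1% to 53.7% with either replicate left out. Counts per window, 4.38, were 4.0 in gene windows and 3.93 within 100 kb, and 4.24 to 4.52 with either replicate left out. Tet1, Tet2, Tet3, Dnmt3b and Uhrf1 kept their direction in every fit of the whole loci. In the fit of gene windows alone Dnmt3b moved from 0.40 to 0.00022, Dnmt1 turned to -0.39, Dnmt3a to -1.38 and Dnmt3l to -0.28. Uhrf1 (-0.92), Tet1 (0.79), Tet2 (0.12) and Tet3 (0.65) kept their direction there. At Uhrf1 (1 and 1) and Tet3 (3 and 3) the alleles were equal in replicate 2, so that direction came from replicate 1 alone. In fits of the whole loci, differences near 0 changed sign: Dnmt1 from 0.01 to -0.017 with DESeq2 size factors, -0.021 in the Wald test and -0.018 in limma (square root scale), Dnmt3a from 0.01 to -0.017, -0.0090 and -0.052 in the same order, and Dnmt3l from 0.01 to -0.017 and -0.019 in the DESeq2 fits. With 1 replicate left out no degree of freedom remains, so calls could not be counted. A minimum count of 10 kept 40 windows and 3437 loci, with 2 windows and 3 loci of the set.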
